A study of Mus musculus with 11 samples.

Results

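The 9 genes described here are the insulin-like growth factor (IGF) family members Igf1, Igf1r, Igf2r, Igfbp2, Igfbp3, Igfbp4, Igfbp5, Igfbp6 and Igfbp7, taken by gene symbol from 46469 symbols in the expression tables. Messenger RNA was measured in 11 libraries of cultured mouse embryonic fibroblasts, connective tissue cells grown out of the embryo. The cells were Actb -/- (KO, 3 libraries numbered 1, 3 and 4), Actb +/- (Het, 4 libraries) or Actb +/+ (WT, 4 libraries), Actb being the gene for cytoplasmic β-actin. Every culture came from 10.5 day BALB/c embryos and was grown in high glucose DMEM with 10% fetal bovine serum, penicillin and streptomycin, and the RNA was taken at 70% confluence. The submitters left out a further KO library after quality control, and it was not analysed here. How the Actb alleles were made, and whether each library came from its own embryo, is not given in the sources used here, and the p-values therefore reflect only how these libraries vary, part of which may be technical.

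IGF1 and IGF2 are secreted growth factors that act on cells through the IGF1 receptor, a tyrosine kinase of the plasma membrane that signals through insulin receptor substrates to Akt and through Ras to the MAP kinases. The IGF2 receptor, which is also the cation-independent mannose 6-phosphate receptor, has no kinase and carries IGF2 and lysosomal enzymes to lysosomes. IGF binding proteins are secreted carriers that hold the ligands away from the receptor or deliver them to it, and proteases free the ligand by cutting the carrier. In fibroblast cultures the cells make the carriers themselves, while serum in the medium brings its own IGF and carriers, which messenger RNA does not report.

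Upstream sequences are shown for the 4 binding proteins with the greatest differences between genotypes and for Igf2r, which was highest in Het. Each line holds the 250 bases before the start of the transcript in RefSeq on GRCm38.p6, written 5′ to 3′ in the direction of the gene. All 9 members matched that table. Capitals mark 4 motifs on either strand, the TATA-type runs TATAAA or TATATA, the GC box core GGGCGG and the E-box CACGTG. A GC box core of Igfbp7 lies on the other strand and reads CCGCCC.
Igfbp3, chr11:7213924-7214173, minus strand: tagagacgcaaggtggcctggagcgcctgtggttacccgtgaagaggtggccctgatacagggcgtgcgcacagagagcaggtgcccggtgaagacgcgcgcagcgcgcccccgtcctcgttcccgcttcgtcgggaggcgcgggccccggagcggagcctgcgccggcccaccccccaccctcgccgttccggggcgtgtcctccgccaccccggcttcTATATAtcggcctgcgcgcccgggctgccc
Igfbp4, chr11:99040994-99041243, plus strand: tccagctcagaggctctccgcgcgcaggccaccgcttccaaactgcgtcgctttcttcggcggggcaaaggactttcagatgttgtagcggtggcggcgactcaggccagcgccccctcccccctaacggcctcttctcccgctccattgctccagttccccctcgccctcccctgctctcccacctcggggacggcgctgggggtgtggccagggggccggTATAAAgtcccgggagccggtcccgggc
Igfbp7, chr5:77408046-77408295, minus strand: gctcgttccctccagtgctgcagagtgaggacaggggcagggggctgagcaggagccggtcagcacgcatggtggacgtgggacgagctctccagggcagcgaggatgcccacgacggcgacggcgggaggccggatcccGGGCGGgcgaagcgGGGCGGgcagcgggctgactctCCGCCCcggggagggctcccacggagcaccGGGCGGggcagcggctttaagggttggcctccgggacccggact
Igfbp2, chr1:72824230-72824479, plus strand: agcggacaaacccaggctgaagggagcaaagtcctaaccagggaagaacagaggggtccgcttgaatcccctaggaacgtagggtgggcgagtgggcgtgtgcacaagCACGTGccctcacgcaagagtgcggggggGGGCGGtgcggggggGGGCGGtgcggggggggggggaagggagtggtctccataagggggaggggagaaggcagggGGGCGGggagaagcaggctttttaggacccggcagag
Igf2r, chr17:12769707-12769956, minus strand: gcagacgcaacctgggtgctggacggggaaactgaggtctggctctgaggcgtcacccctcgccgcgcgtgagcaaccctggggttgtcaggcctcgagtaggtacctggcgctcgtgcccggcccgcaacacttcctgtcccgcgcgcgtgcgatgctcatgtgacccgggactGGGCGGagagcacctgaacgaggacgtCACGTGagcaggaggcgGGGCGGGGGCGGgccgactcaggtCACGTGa

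The windows of Igfbp3 and Igfbp4 hold a TATA-type run close to the start. In Igfbp3 the run is TATATA and begins 30 bases before the start, and in Igfbp4 it is TATAAA and begins 28 bases before it. TATAAA occurs on either strand in 12.4% and TATATA in 5.25% of all 32851 windows of the same length. Igfbp7 holds GGGCGG 4 times, and Igfbp2 and Igf2r hold it 3 times each, against 32.7% of all windows with at least 1. The table gives a second start for Igfbp2, and the window before it, with 56.4% G and C, holds none of the motifs. RefSeq also extends the genes Igfbp3 and Igfbp4 upstream of the starts used here. Igf2r also holds CACGTG 2 times, both within TCACGTGA, which occurs in 0.785% of all windows. Igfbp2 has CACGTG once, 142 bases before the start, and 6.02% of all windows have it. None of the members' windows holds a CArG box, the motif of serum response factor, which 1.47% of all windows hold. G and C make up 73.2% of the bases upstream of Igfbp3, 69.2% for Igfbp4 and 74.0% for Igfbp7, against a median of 52.4% over all windows.

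Values are FPKM, fragments normalised to transcript length and sequencing depth, scaled between libraries. Actb measured between 44.8 and 47.1 FPKM in KO, between 815 and 868 in Het and between 1076 and 1525 in WT, so each library's Actb level went with its label. Depth relative to WT 1 was estimated at 65.6% to 101% in KO, 79.6% to 118% in Het and 60.7% to 125% in WT. All 10 fibroblast markers passed the filter on low values, Thy1 through KO alone and Pdgfra through Het and KO 4. Both were under 1 FPKM in every WT library, so the filter favoured a higher level of these 2 in the mutants. Summed over the 10, the level was 4063 to 4685 FPKM in KO, 2875 to 3194 in Het and 1957 to 2381 in WT. The abundant genes Vim, S100a4, Fn1 and Col1a1 carried most of that sum, and single markers differed from it. By mean level Col1a1, Pdgfrb, Thy1, Vim, S100a4 and Fn1 were highest in KO and Col1a2, Pdgfra, P4hb and Ddr2 in Het, and Ddr2 averaged 4.39 FPKM in KO, 50.9 in Het and 44.4 in WT. Of the smooth muscle list 6 of 8 were tested. The list summed to 7134 to 7907 in KO, 239 to 255 in Het and 98.7 to 117 in WT, mostly through Acta2 and Tagln. All 6 tested genes had their highest mean in KO, though Smtn was not called against WT (0.73, adjusted p = 0.0617). Cnn1 measured 248 to 278 FPKM in KO, 1.87 to 3.15 in Het and 1.22 to 1.52 in WT. Lmod1 measured 17.2 to 18.1 in KO and at most 0.409 in Het and 0.172 in WT. Myh11 and Myocd, which were not tested, stayed under 1 FPKM in every library. The adipocyte list, 2 of 7 tested, summed to 15.4 to 20.8 FPKM in KO, 4.29 to 6.37 in Het and 5.12 to 7.29 in WT, mostly through Pparg, with Cidec and Lep at 0 throughout. Of the macrophage list, 10 of 11 genes were under 1 FPKM everywhere and Ptprc was at 0, the sums being 2.73 to 5.18 in KO, 1.54 to 2.93 in Het and 2.46 to 3.65 in WT. All 8 endothelial and all 8 hepatocyte markers, and 7 of 8 for skeletal muscle, were under 1 FPKM in every library. Of the epithelial list 6 of 8 were under 1 FPKM in every library. The sums overlapped, at 29.3 to 46.7 in KO, 27.5 to 39.0 in Het and 28.9 to 70.1 in WT, mostly through Krt19. Krt18 did not overlap between genotypes, with means of 0.214 FPKM in KO, 6.50 in Het and 1.69 in WT. It was lower in KO than in WT (-1.15, adjusted p = 0.000126) and higher in Het (1.46, adjusted p = 1.63e-05). The part of these cell states in the differences of IGF genes was not tested.

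Most of the 9 genes differed between genotypes. Igfbp3 was under 1 FPKM in WT and above 11 FPKM in KO and Het, Igfbp4 was high in Het, Igfbp7 was high in KO, and Igfbp2 was highest in WT. The differences reported are of log2(FPKM + 1) from limma with Benjamini-Hochberg adjustment over 14940 genes, and "rose" or "fell" is used for an adjusted p under 0.05. Of the 9 members 8 passed the filter of 1 FPKM in at least 3 libraries, Igfbp3 through KO and Het alone and Igfbp5 not at all. In KO against WT 6 members were called, where 47.1% of all genes were. Igf1r, Igfbp3, Igfbp4 and Igfbp7 rose, where 23.3% of all genes did, and Igf1 and Igfbp2 fell, where 23.8% did. In Het against WT 6 members were called against 43.8% of all genes. Igf1r, Igf2r, Igfbp3 and Igfbp4 rose (21.7% of all genes) and Igfbp2 and Igfbp7 fell (22.1%). KO against Het called 3 members against 44.2% of all genes, with Igfbp7 higher in KO (22.0% of all genes) and Igf2r and Igfbp4 lower (22.2%). Since so many genes differed, these counts are a description of the members and not a property of the family. The balance over all genes depends on the scaling, as 49.4% of 7041 genes called in KO against WT were higher with it and 37.1% of 7401 without it, and in KO against Het 49.8% of 6604 with it and 36.5% of 7050 without it. In a bulk sample, fewer cells that make a transcript and less transcript per cell cannot be told apart.

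**Figure D1:**
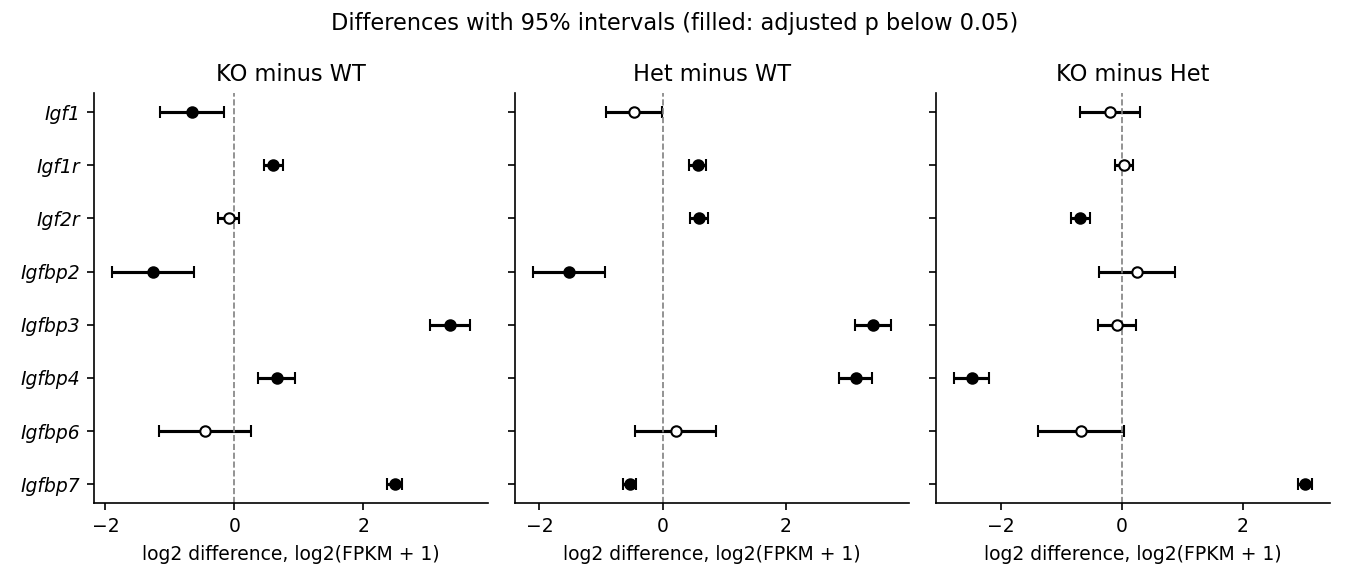
Difference of log2(FPKM + 1) for the 8 tested members in KO minus WT, Het minus WT and KO minus Het, with 95% intervals from limma. Filled points have an adjusted p under 0.05, and a reader should see Igfbp3 far right in both comparisons with WT and Igfbp4 and Igfbp7 on opposite sides in KO minus Het.

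Igf1, the ligand, was low in all groups and lower in KO than in WT. Igf1 (gene26072, chromosome 10, 87858270 to 87937047) measured 3.43, 6.14 and 3.80 FPKM in KO 1, 3 and 4, 4.41, 7.98, 4.44 and 4.31 in Het 1 to 4, and 8.24, 8.67, 5.52 and 7.70 in WT 1 to 4. KO 3 and Het 2 lay within the range of WT, and the other KO and Het libraries lay below it. Igf1 fell in KO (log2 difference from WT -0.66, SE 0.23, adjusted p = 0.0325) and did not pass in Het (-0.46, SE 0.21, adjusted p = 0.0971). The KO call was lost with no filter on low values (adjusted p = 0.0744). Without KO 1 the KO difference was -0.53 (adjusted p = 0.122), and it also lost its call without KO 4 (adjusted p = 0.107), without WT 1 (0.0663) or without WT 2 (0.0751). Without Het 2 the Het difference was -0.65 and passed (adjusted p = 0.0167). The intervals deposited with the tables reached a median of 37.2% of the value to either side for Igf1, and the gene overlaps the antisense locus Igf1os by 6.46 kb, so reads from the overlap may be shared if the counting did not use strand. The gene for the other ligand, Igf2, was lower still, with means of 0.00595 FPKM in KO, 0.126 in Het and 0.305 in WT, and was not tested.

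Igf1r, the receptor kinase, rose in KO and Het to levels that were not distinguished. Igf1r (gene18429, chromosome 7, 67952257 to 68233668) measured 6.27, 6.85 and 6.39 FPKM in KO, 6.51, 5.97, 6.38 and 6.49 in Het, and 3.85, 4.25, 3.88 and 3.80 in WT. Every KO and Het library was above every WT library, and KO and Het overlapped. The mean was 6.50 ± 0.309 in KO, 6.34 ± 0.249 in Het and 3.95 ± 0.209 in WT (SD, n = 3, 4 and 4), which is 1.65 times WT in KO and 1.61 times in Het. Igf1r rose in KO (0.60, SE 0.07, adjusted p = 2.8e-05) and in Het (0.57, SE 0.06, adjusted p = 3.01e-05), and KO differed from Het by 0.03 with a 95% interval of -0.11 to 0.18. Insr, the insulin receptor gene, whose product forms hybrid receptors with that of Igf1r, averaged 9.44 FPKM in KO, 8.20 in Het and 4.42 in WT. It too rose in KO (0.95, adjusted p = 4.74e-06) and in Het (0.77, adjusted p = 1.73e-05).

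Igf2r, the receptor that clears IGF2, rose in Het and did not differ detectably between KO and WT. Igf2r (gene39168, chromosome 17, 12682406 to 12769706, summed with a second locus on an alternate sequence) measured 15.5, 13.5 and 14.0 FPKM in KO, 23.2, 24.0, 25.7 and 21.8 in Het, and 14.2, 15.9, 15.8 and 15.3 in WT. All 4 Het libraries were above all others, while KO and WT overlapped. Igf2r rose in Het (0.60, SE 0.07, adjusted p = 4.09e-05), to a mean 1.55 times that of WT. In KO the difference from WT was -0.09 with an interval of -0.25 to 0.07 (adjusted p = 0.344), and KO was lower than Het by an interval of -0.84 to -0.52 (-0.68, adjusted p = 2.25e-05). The gene is imprinted and overlaps Airn, the antisense RNA that silences its paternal copy, by 28.4 kb. Airn averaged 3.72 FPKM in KO, 3.67 in Het and 1.94 in WT and rose in KO (0.67, adjusted p = 0.0115) and in Het (0.68, adjusted p = 0.0074). Whether the counting used strand is not given in the sources used here, so part of the reads in the overlap could belong to either gene.

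**Figure D2:**
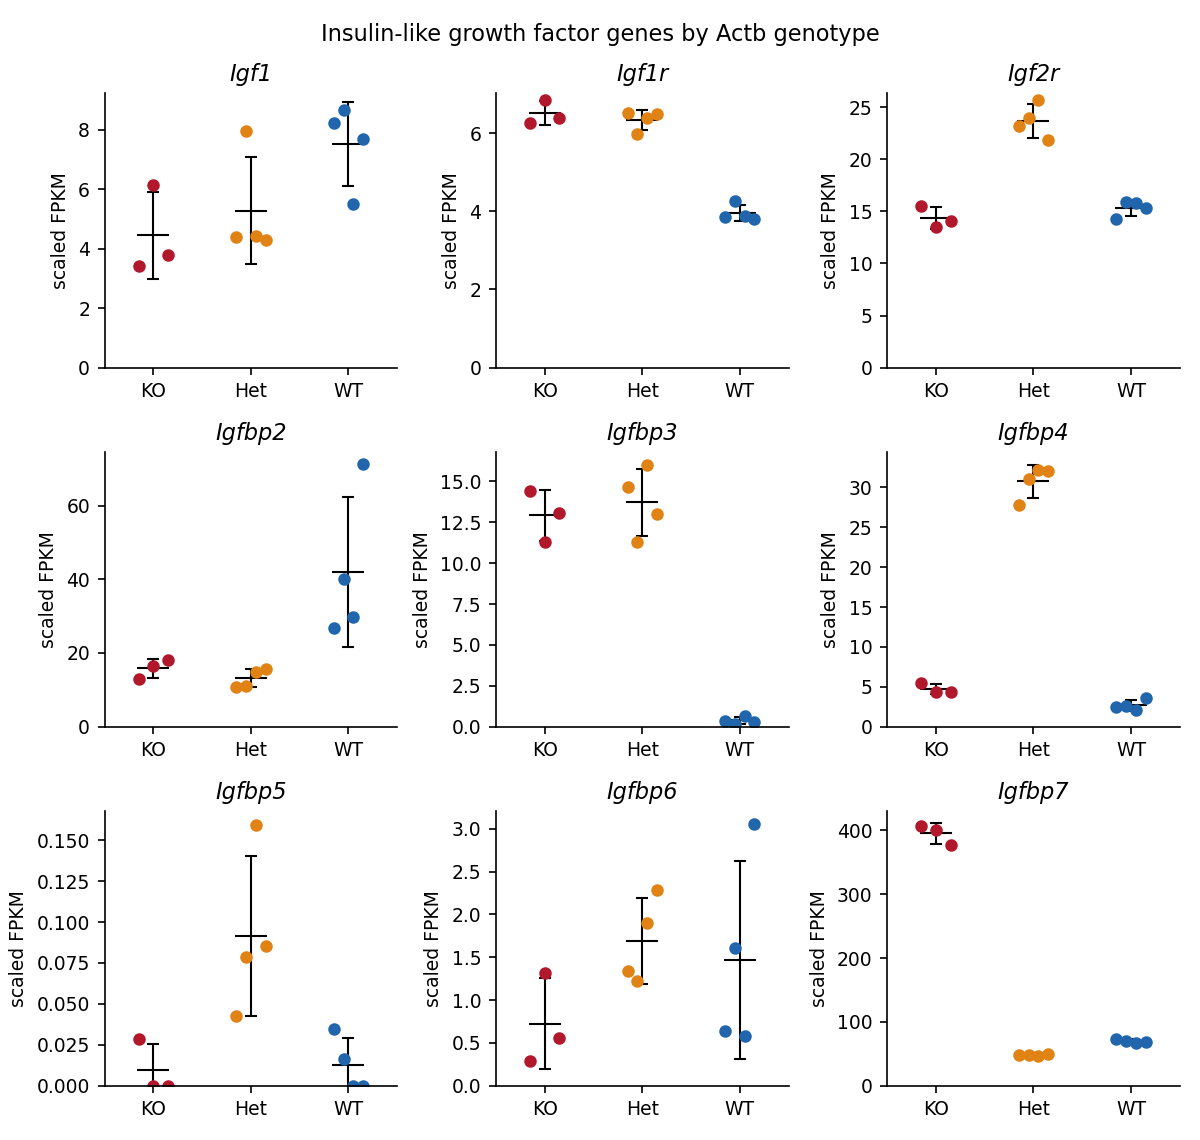
Scaled FPKM of the 9 members in each KO, Het and WT library (points), with the mean and SD of each group (lines); every axis starts at 0 and has its own scale. The 3 KO libraries stand apart for Igfbp7, the 4 Het libraries for Igf2r and Igfbp4, and the 4 WT libraries lie lowest for Igf1r and Igfbp3.

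Igfbp3 had the greatest difference from WT of the members tested, in KO and in Het. The gene encodes the main IGF carrier of serum and is also secreted by fibroblasts. Igfbp3 (gene26965, chromosome 11, 7206086 to 7213931) measured 14.4, 11.3 and 13.1 FPKM in KO, 14.6, 11.3, 16.0 and 13.0 in Het, and 0.366, 0.170, 0.662 and 0.315 in WT. No WT library reached 1 FPKM and no KO or Het library was under 11 FPKM. Igfbp3 rose in KO (3.34, SE 0.14, adjusted p = 1.8e-08) and in Het (3.42, SE 0.13, adjusted p = 1.51e-08), and the ratio of mean FPKM to WT was 34.2 in KO and 36.3 in Het. The pseudocount compresses such a change, and with a pseudocount of 0.1 the differences were 4.86 in KO and 4.94 in Het. KO and Het overlapped, and they differed by -0.07 with an interval of -0.39 to 0.24.

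Igfbp4, the carrier cut by the protease PAPP-A, rose strongly in Het and less in KO. Igfbp4 (gene28939, chromosome 11, 99041260 to 99052646) measured 5.47, 4.34 and 4.35 FPKM in KO, 27.8, 31.0, 32.2 and 32.1 in Het, and 2.43, 2.56, 2.04 and 3.60 in WT. The 3 genotypes did not overlap, with Het far above KO and KO above WT. The mean was 4.72 ± 0.649 in KO, 30.8 ± 2.05 in Het and 2.66 ± 0.668 in WT (SD, n = 3, 4 and 4), so that Het had 11.6 times and KO 1.78 times the level of WT. Igfbp4 rose in Het (3.13, SE 0.12, adjusted p = 1.72e-08) and in KO (0.66, SE 0.13, adjusted p = 0.00187), and KO was lower than Het (-2.48, SE 0.13, adjusted p = 1.14e-07). Of the 10 fibroblast markers 4 were likewise highest in Het and 6 were highest in KO, and their part in the result was not tested.

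Igfbp7 moved in opposite directions in KO and Het. Its product, a matrix-associated protein that binds IGFs weakly, is made by fibroblasts and vessel cells. Igfbp7 (gene12171, chromosome 5, 77349240 to 77408045) measured 408, 401 and 377 FPKM in KO, 48.2, 47.4, 46.1 and 49.1 in Het, and 73.4, 69.9, 66.1 and 68.5 in WT. The genotypes were separate, KO above WT and WT above Het. Igfbp7 rose in KO (2.49, SE 0.05, adjusted p = 8.46e-11), to 5.69 times the mean of WT. It fell in Het (-0.53, SE 0.05, adjusted p = 9.39e-06), to 0.686 times that of WT, and KO was above Het by 3.02 (SE 0.05, adjusted p = 1.84e-11). The summed fibroblast, smooth muscle and adipocyte markers given above were also highest in KO. The fibroblast sum came mostly through Vim, S100a4, Fn1 and Col1a1, and 4 of its 10 markers were highest in Het. The adipocyte sum came mostly through Pparg. The part of these markers in the level of Igfbp7 was not tested.

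Igfbp2, a carrier of fetal tissues and serum, fell in both mutant genotypes. Igfbp2 (gene867, chromosome 1, 72824480 to 72852474) measured 12.9, 16.3 and 18.1 FPKM in KO, 10.9, 11.1, 14.8 and 15.7 in Het, and 26.8, 40.0, 29.7 and 71.4 in WT. Every WT library was above every KO and Het library, and the WT libraries were spread over a wider range than the others. Igfbp2 fell in KO (-1.26, SE 0.29, adjusted p = 0.00393) and in Het (-1.51, SE 0.26, adjusted p = 0.000906). WT 4 was highest, and without it the differences were -0.98 in KO (adjusted p = 0.00139) and -1.23 in Het (adjusted p = 0.000258). WT 4 was also the deepest library, at 125% of WT 1, with WT 2 at 104% and WT 3 at 60.7%. Map2k2, of the Ras route (17.5, 41.2, 20.9 and 69.8 FPKM in WT 1 to 4), and Col1a1 (83.7, 168, 107 and 322) ranked the WT libraries as Igfbp2 did. Ddr2 ranked them in reverse (49.7, 43.2, 45.8 and 38.9). Whether depth or another trait of the libraries lay behind these orders was not tested. KO and Het differed by 0.25 with an interval of -0.38 to 0.89.

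Igfbp6, a carrier that prefers IGF2, was low and variable and was not called in any comparison between genotypes. Igfbp6 (gene37550, chromosome 15, 102144186 to 102149512) measured 0.293, 1.32 and 0.558 FPKM in KO, 1.34, 1.23, 1.90 and 2.29 in Het, and 0.635, 1.60, 0.583 and 3.06 in WT. The groups overlapped, and WT 4 and WT 2 were the highest WT libraries, as they were for Igfbp2. The difference from WT was -0.45 in KO (interval -1.16 to 0.26, adjusted p = 0.276) and 0.22 in Het (interval -0.44 to 0.87, adjusted p = 0.595). KO against Het gave -0.67 (adjusted p = 0.117), which passed without WT 4 (adjusted p = 0.0413). Igfbp5, a carrier that binds the extracellular matrix (gene868, chromosome 1, 72858065 to 72874865), was at most 0.0282 FPKM in KO, 0.159 in Het and 0.0349 in WT. It was listed at 0 in KO 3, KO 4, WT 3 and WT 4 and was not tested.

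The mixture of binding protein transcripts differed accordingly. Summed over the 6 binding proteins, the level was 429.6 ± 14.3 FPKM in KO, 107 ± 5.33 in Het and 116 ± 21.6 in WT (SD, n = 3, 4 and 4). Igfbp7 made up 92.0 ± 0.666% of that sum in KO, 44.6 ± 2.52% in Het and 61.4 ± 10.6% in WT. Igfbp2 held 3.69 ± 0.731% in KO, 12.2 ± 1.72% in Het and 34.8 ± 9.89% in WT, so WT was mostly Igfbp7 and Igfbp2. Igfbp4 held 1.10 ± 0.128% in KO, 28.7 ± 1.37% in Het and 2.27 ± 0.169% in WT. Igfbp3 held 3.01 ± 0.359% in KO, 12.8 ± 1.75% in Het and 0.346 ± 0.231% in WT. Het therefore had a mixture of 4 carriers where KO had mainly Igfbp7, and the sums of Het and WT overlapped. Shares of a sum are not independent, since the rise of Igfbp7 in KO lowers the share of every other carrier.

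**Figure D3:**
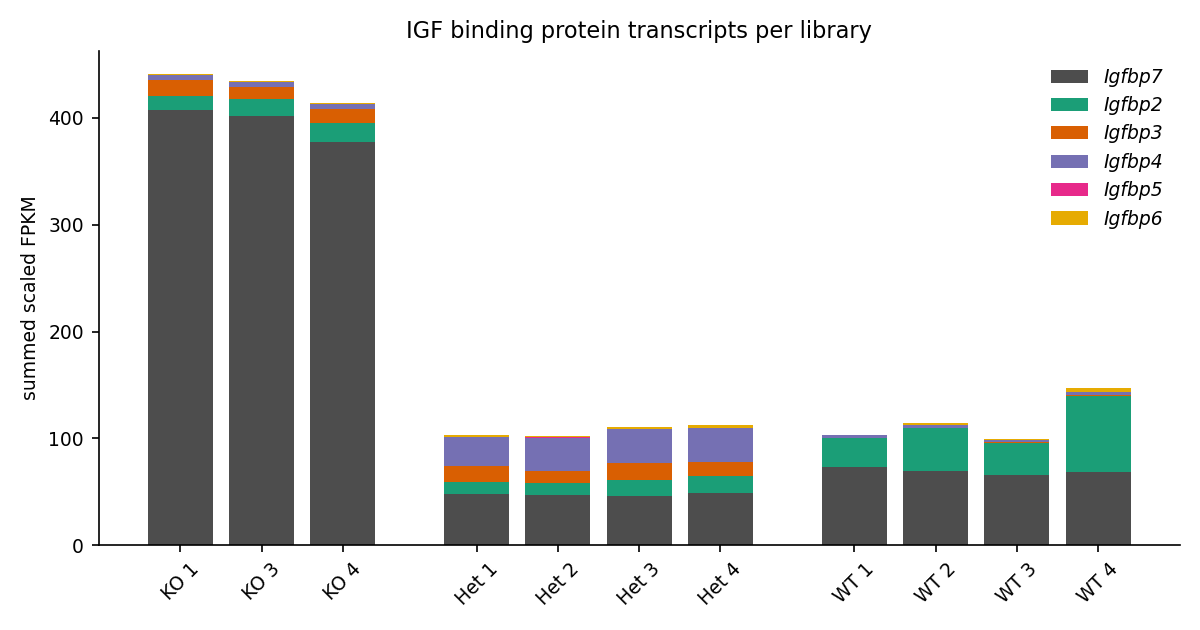
Scaled FPKM of the 6 binding proteins stacked for each of the 11 libraries, KO, Het and WT from left to right. The KO bars reach 413 to 441 FPKM and are nearly all Igfbp7, and the Het bars hold a visible band of Igfbp4 that the WT bars lack.

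Ranked by FPKM, which is per length, Igfbp7 was the highest member in every genotype. In KO it was followed by Igfbp2, Igf2r and Igfbp3, which overlapped with their neighbours in that order, then by Igf1r, by Igfbp4 and Igf1, which overlapped, and by Igfbp6. In Het the order was Igfbp7, Igfbp4 and Igf2r without overlap, then Igfbp3 and Igfbp2, which overlapped, Igf1r and Igf1, which overlapped, and Igfbp6. In WT Igfbp7 and Igfbp2 overlapped, since Igfbp2 in WT 4 passed every WT value of Igfbp7 but that of WT 1. Igf2r, Igf1 and Igf1r followed without overlap, then came Igfbp4, which overlapped with Igfbp6, and Igfbp6, which overlapped with Igfbp3. Igf1r was above Igf1 in KO with no overlap and below it in WT with no overlap. Igfbp5 was last in each genotype.

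Het was set against the midpoint of KO and WT on the log2 scale. A departure from the midpoint does not mean that Het lay outside the range between KO and WT. Of the 8 tested members 6 departed from the midpoint, where 44.1% of all genes did. Higher than the midpoint (21.3% of all genes) were Igfbp4 (2.81, SE 0.11, adjusted p = 1.26e-08), Igfbp3 (1.75, SE 0.12, adjusted p = 8.55e-07), Igf2r (0.64, SE 0.06, adjusted p = 1.02e-05) and Igf1r (0.27, SE 0.05, adjusted p = 0.00231). Lower than it (22.8%) were Igfbp7 (-1.78, SE 0.04, adjusted p = 4.43e-10) and Igfbp2 (-0.88, SE 0.24, adjusted p = 0.0107). For Igf1r, Igfbp3 and Igfbp2 the level in Het was not distinguished from that in KO, while for Igf2r, Igfbp4 and Igfbp7 it lay outside the range between KO and WT. Igf1 (-0.13, adjusted p = 0.594) and Igfbp6 (0.44, adjusted p = 0.204) did not pass. Actb itself was 1.76 above the midpoint in Het (adjusted p = 6.8e-08), with means of 45.6 FPKM in KO, 833 in Het and 1319 in WT. With KO this low, the midpoint of log2 values lies far below that of the FPKM, so part of the 1.76 comes from the scale.

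Of 19 tested genes listed as IGFBP proteases and protease inhibitors, 15 rose and 2 fell in KO with a median difference of 0.72. Over all genes 23.3% rose, 23.8% fell and the median was 0.01. Without scaling 13 of the 19 rose and 2 fell in KO (median 0.63). Pappa and Tll1 passed the filter on low values through KO alone, and Htra3 and Mmp3 had no WT library at 1 FPKM, so a rise of these genes was favoured by the filter. Of the other 15, which had a WT library at 1 FPKM or more, 11 rose and 2 fell in KO. In Het 7 of the 19 rose and 7 fell, with a median of 0.01, where 21.7% of all genes rose and 22.1% fell. Tll1, a tolloid-like metalloprotease, averaged 5.22 FPKM in KO, 0.224 in Het and 0.306 in WT. Adam12, a membrane metalloprotease, rose in KO by 1.65 and in Het by 0.42, and Timp3, a metalloprotease inhibitor, rose in KO by 1.48 and fell in Het (-0.26). Pappa, the gene of the protease that cuts the product of Igfbp4, averaged 1.61 FPKM in KO, 0.285 in Het and 0.0884 in WT, while Igfbp4 was highest in Het.

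Of 41 tested adaptors and members of the Akt, mTOR and Ras routes, 12 rose and 6 fell in KO (median 0.08). Over all genes 23.3% rose and 23.8% fell. Without scaling 10 of the 41 rose and 8 fell in KO (median -0.01). In Het 12 rose and 7 fell (median 0.11), where 21.7% and 22.1% of all genes did. Irs2, a receptor substrate, measured 4.06, 7.02 and 8.67 FPKM in KO, 1.59, 1.80, 2.01 and 2.21 in Het, and 1.40, 2.65, 1.25 and 4.24 in WT. It rose in KO (1.20, adjusted p = 0.00592) although KO 1 lay below WT 4, and Irs1, the other main substrate, fell in KO (-0.70, adjusted p = 7.58e-05). The translation inhibitor Eif4ebp1 (0.94) and the mTOR activator Rheb (0.84) also rose in KO, and Eif4ebp1 rose by 0.61 in Het. Of 19 tested genes that dampen receptor signalling, 11 rose and 2 fell in KO (median 0.48), where 23.3% and 23.8% of all genes did, and 10 rose and 2 fell in Het (median 0.30), where 21.7% and 22.1% did. Without scaling 11 of the 19 rose and 4 fell in KO. Grb14, an adaptor that inhibits insulin and IGF receptors, averaged 7.93 FPKM in KO, 4.33 in Het and 0.655 in WT and rose by 2.43 in KO and 1.69 in Het, with no WT library at 1 FPKM. Of the 18 dampers with a WT library at 1 FPKM or more, 10 rose and 2 fell in KO. Grb10, its imprinted relative, averaged 121 FPKM in KO, 49.5 in Het and 41.7 in WT (1.51 in KO, 0.24 in Het). Trib3, an inhibitor of Akt, rose in KO (1.29) and in Het (0.50), and so did the ubiquitin ligase gene Cblb (0.91 in KO, 0.93 in Het).

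Genes that sort lysosomal enzymes with Igf2r showed no shared direction. Of 21 tested, 8 rose and 6 fell in KO (median 0.01, where 23.3% of all genes rose and 23.8% fell), a balance that rests on the scaling, since 3 rose and 8 fell without it. In Het 5 rose and 2 fell (median -0.04), against 21.7% and 22.1% of all genes, so the share that rose was near that of all genes. Sort1, a sorting receptor, fell in KO (-1.79) and in Het (-0.61), Nagpa, which uncovers the mannose 6-phosphate tag, rose in KO (0.64), and the sorting nexin genes Snx1 and Snx2 went opposite ways in KO (-0.61 and 0.50). The 3 IGF2 mRNA binding proteins, which bind Igf2 and other transcripts in the cytoplasm, rose in KO and in Het, where 23.3% and 21.7% of all genes did, and Igf2bp1 in KO was not called without scaling. Igf2bp2 averaged 18.9 FPKM in KO, 35.8 in Het and 7.22 in WT (1.27 in KO, 2.16 in Het), and Igf2bp3 averaged 21.7 in KO, 33.2 in Het and 11.01 in WT (0.92 in KO, 1.52 in Het). Of the other ligands, receptors and carriers listed, 2 of 8 were tested, Insr, given above, and Igflr1, which was not called in KO (-0.04) or in Het (-0.04).

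**Figure D4:**
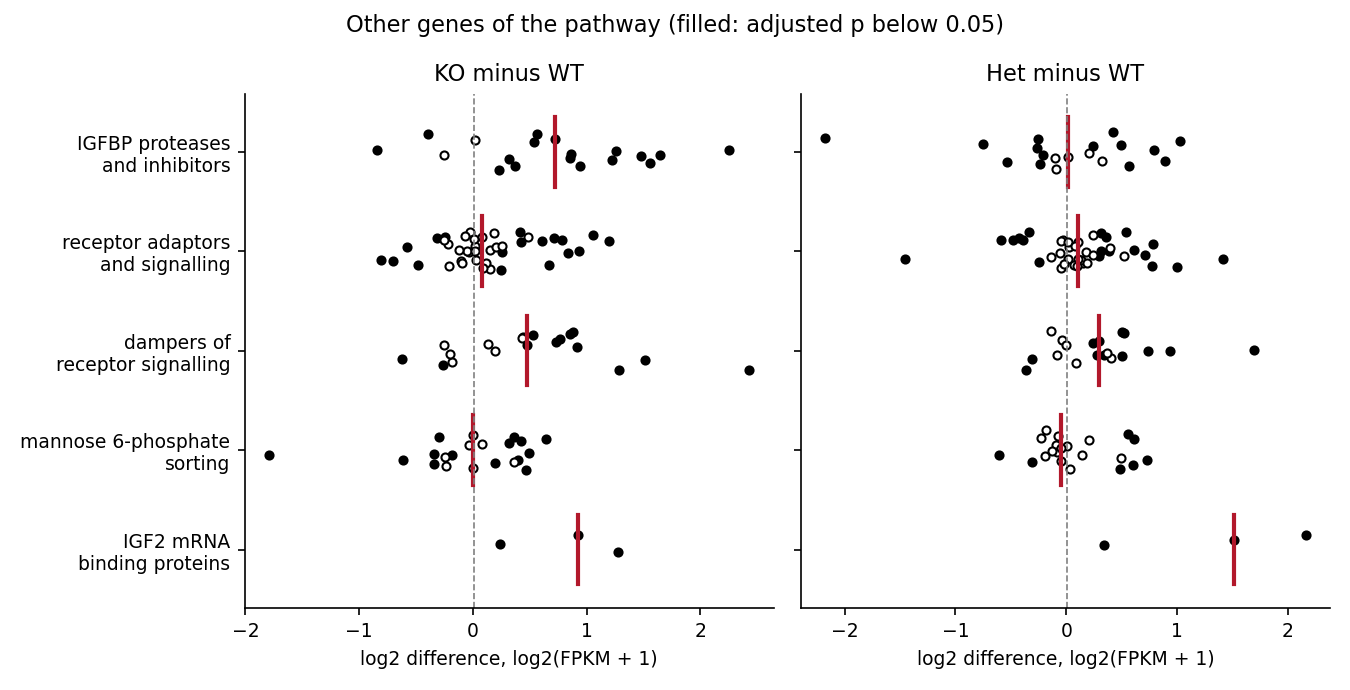
Differences of log2(FPKM + 1) for the tested genes of 5 lists around the IGF system, KO minus WT (left) and Het minus WT (right), 1 point per gene, filled where the adjusted p was under 0.05, with red lines at the list medians. The protease list has a median of 0.72 in KO and 0.01 in Het, and the dampers have 0.48 in KO and 0.30 in Het.

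Some carrier genes lie beside genes that were near or at 0. Igfbp2 and Igfbp5 lie 5.59 kb apart on chromosome 1 with no locus between them, Igfbp2 at 12.9 FPKM or more in every KO and WT library against at most 0.0349 for Igfbp5 there. In Het Igfbp2 measured 10.9 FPKM or more and Igfbp5 at most 0.159. Igfbp3 lies 3.54 kb from Igfbp1, which was listed at 0 in all 11 libraries while Igfbp3 was above 11 FPKM in KO and Het. Igfbp4 lies 13.0 kb from the tensin gene Tns4, which stayed between 0.101 and 0.183 FPKM over the 3 genotypes. Igfbp6 lies 27.8 kb from Tenc1, the gene of tensin 2. Tenc1 averaged 21.7 FPKM in KO, 16.0 in Het and 15.6 in WT and was not called in KO (0.51, adjusted p = 0.107) or in Het (0.10, adjusted p = 0.755). Of 7 tested genes in a wider list of neighbours, 4 rose and 1 fell in KO, where 23.3% of all genes rose and 23.8% fell, and 4 rose in Het, where 21.7% did. That list reaches far, as Tns1 lies 1058 kb from Igfbp2 with 18 loci between them and Tns3 1218 kb from Igfbp3 with 5 between. Those that rose in KO and Het were Synm (1.20 and 1.51, with no WT library at 1 FPKM), Tns1 (0.96 and 0.48), Airn and Tns3 (0.45 and 0.74), and Top2a fell in KO (-0.44). Of the 6 neighbours with a WT library at 1 FPKM or more, 3 rose and 1 fell in KO.

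The genes whose pattern over the 11 libraries lay closest to each member were found by the root mean square difference of log2(FPKM + 1) after centring each gene, among 9017 genes. They were chosen for that likeness, so their levels are a description. Igf1r was matched within 0.06 by Ago2, the Argonaute that cuts RNA, and within 0.08 by Sh3pxd2b and Cd63. Igf2r was matched within 0.06 by Suv39h1, a histone H3 lysine methyltransferase, at 38.7 FPKM in KO, 61.3 in Het and 41.6 in WT, then by Tgfbrap1 (0.07) and Steap1 (0.08). For Igfbp7 the closest were Slc6a15 (0.20), Eno3 (0.20), the muscle enolase gene, and Gnao1 (0.23). For Igfbp3 they were Renbp (0.27), Mgst1 (0.28) and the chemokine gene Ccl7 (0.30), and Ccl7 averaged 274 FPKM in KO, 190.2 in Het and 22.6 in WT. Igfbp4 was nearest to Rasl11a (0.25), complement C3 (0.30) and the Wnt antagonist gene Sfrp2 (0.34), the last averaging 5.80 FPKM in KO, 23.1 in Het and 3.57 in WT. Igfbp2 was nearest to Cltb (0.23), Krt80 (0.24) and Pdlim4 (0.26). The closest to Igf1 were Uchl4 (0.23), Bud13 (0.24) and Snrnp48 (0.25), and those to Igfbp6 were Btbd2, Lmnb2 and Skiv2l (0.22 each), all of them poor matches beside the spread of Igf1 (0.39) and Igfbp6 (0.49) about their own means.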

How the data were processed

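Poly(A) RNA of 11 libraries (3 KO, 4 Het, 4 WT) was sequenced from TRI Reagent extracts with a stranded TruSeq kit, per the labels' protocols. The authors deposited FPKM estimates per locus, made with TopHat2 2.1.0 and Cufflinks 2.2.1 on GRCm38.p4, per the submitters' processing notes, which also name Cuffdiff without a version. The tables hold no read counts, so no count model was used. Each table lists 48892 loci. FPKM of loci sharing a symbol were summed (1766 symbols), and 31 symbols that 1 table had turned into dates were restored from the others.

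Median-of-ratios scaling between libraries used 13981 genes and gave factors of 0.941 to 1.04. The filter, 1 FPKM or more in 3 or more libraries, left 14940 genes. A group-means model of log2(FPKM + 1) was then run in limma 3.58.1 (R 4.3.3) on all 11 libraries, using trended empirical Bayes and two-sided tests. Benjamini-Hochberg adjustment covered all genes, with calls at 0.05. This scale understates changes of low genes. The fit was also run on simulated data with independent noise per gene, without scaling or a filter on low values. That setting is simpler than these data, and no result given here rests on it. KO against WT and Het against WT share the WT libraries, and each comparison's values are given side by side.

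FPKM carry no depth. Relative depth came from loci whose deposited interval runs from 0 to a fixed multiple of the value, as it does at the lowest read numbers (133 to 174 loci per library against WT 1). Libraries had 13885 to 14202 genes at 1 FPKM or more, and at most 7 loci in a library had a failed estimate, none of them a member.

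All 9 members are named, Actb as a check of labels, the 3 genes most like each tested member with at least 5 FPKM in a group, and up to 4 genes per list with the greatest change in KO against WT. A few genes taken by this rule are not reported here. Other genes were chosen after their values were seen, namely Pappa, Htra3, Mmp3, Irs1, Map2k2, Igf2, Igflr1, Tenc1, Tns4, Top2a and Igfbp1. The same holds for cell type markers named singly, and Map2k2, Col1a1 and Ddr2 were set beside Igfbp2 for their order over the WT libraries. The members and lists were chosen with earlier results of these data known. Alternatives changed the pseudocount, filter, scaling, loci, gene class, trend, libraries, groups fitted and replicate block. Coordinates count from 1 on GRCm38, and upstream sequences are from RefSeq.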

Additional observations from a re-analysis of the deposited data

Results flagged for a closer look

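Igf1 in Het 2 stood apart from its group. It measured 7.98 FPKM, against 4.41, 4.44 and 4.31 in Het 1, 3 and 4. Its gap to the nearest of these was 0.965 of the range of the group, above Dixon's 95% critical value for 4 samples. Of 20 groups of 4 libraries looked at for the 9 members and Actb, 1 was set apart in this way, and chance alone sets apart about 1 in 20. The deposited interval for Igf1 is wide, with a median of 37.2% of the value to either side.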

How the results depend on the processing

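The 32 tested differences of members gave 660 values under 21 alternatives (20 for the midpoint), and 647 kept their direction and their side of the threshold. KO against Het reversed for Igf1r without scaling (-0.0617) and without KO 3 (-0.000953), leaving out 1 library giving -0.000953 to 0.0543. It also reversed for Igfbp3 without KO 3 (0.0121, with a range of -0.159 to 0.0121), and none of the alternatives called either gene in that comparison. Igf1 in KO against WT lost its call with no filter (adjusted p = 0.0744), with the replicate block (-0.54, adjusted p = 0.0641) and without WT 1, WT 2, KO 1 or KO 4. Its adjusted p over all alternatives ran up to 0.122. Igf1 in Het against WT passed without Het 2 (adjusted p = 0.0167). Igfbp6 passed in KO against Het without WT 4 (adjusted p = 0.0413) and with only those groups fitted (0.0311), and against the midpoint without WT 4 (0.58, adjusted p = 0.0373). The causes were not tested.

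All 166 counts of called genes or members stayed within 1.5 times the count reported. Leaving out 1 library gave 5787 to 7918 genes and 5 to 6 members in KO against WT, 5676 to 7307 and 6 to 7 in Het against WT, 5470 to 7275 and 3 to 4 in KO against Het, and 5594 to 7360 and 6 to 7 for the midpoint. Igfbp6 had no value with a filter of 5 FPKM. Without a filter Igfbp5 differed by 0.11 in Het against WT (adjusted p = 0.026), at levels under 0.2 FPKM.

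The replicate numbers were not taken as pairs, since the labels give no pairing. The deviations of same-numbered libraries from their group means correlated over 0.1 in 5 of 10 pairs (-0.101 to 0.353). The 3 pairs numbered 4 had 0.254 to 0.353, and 6 of 11 libraries correlated best with a library of their own number, which is a hint from the data and not from the design. With the replicate block 7293 genes and 5 members were called in KO against WT, 6990 and 6 in Het against WT, 6879 and 3 in KO against Het, and 7023 and 6 for the midpoint. With 3 or 4 libraries a group and no read counts, differences of low genes such as Igfbp5 and Igfbp6 may go undetected.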
